A study of Mus musculus with 15 samples.

Results

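Mouse fibroblasts labelled TAF-tib48, which the labels call resistant, were set against fibroblasts labelled TAF-tib6, which the labels call sensitive. These 6 arrays, 3 of each source, were chosen by their titles from a series of 15 arrays of 5 fibroblast sources. TAF is read here, from the series title, as tumour-associated fibroblasts, and that title ties them to tumours refractory to treatment against VEGF. The labels give no strain, age, sort or passage, and they leave tib48 and tib6 unexplained. Each array carried fibroblast RNA labelled with Cy5 and, as a common comparator, a commercial pool of mouse reference RNA labelled with Cy3. Values below are log2 ratios of the fibroblast RNA to this reference, and differences are TAF-tib48 minus TAF-tib6 on the log2 scale. Whether the 3 replicates were independent cultures or repeat hybridisations is not stated, and p-values therefore cover only the variation among arrays, part or all of which may be technical.

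Fibroblasts build and remodel the collagenous matrix of a tissue. Those of a tumour also release chemokines, cytokines and growth factors that recruit leukocytes and act on blood vessels. VEGF-A, encoded by Vegfa, is the main growth factor of the vessel lining, and antibodies against it slow the growth of some tumours. Other vessel-acting factors, among them PDGF-C and the angiopoietins, signal through receptors of their own.

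The median Cy5 intensity of the 6 arrays lay between 193 and 285.5, over a local background of 52 to 53. Over 31193 genes tested, log2 ratios of TAF-tib48 arrays correlated with each other at 0.9577 to 0.9733, those of TAF-tib6 arrays at 0.9762 to 0.9805, and those of one source with the other at 0.8446 to 0.9048. TAF-tib48 rep3 was nearer than rep1 and rep2 to the TAF-tib6 arrays. On the first principal component of the 6 arrays, which held 75.28% of the variance, it lay at -14.38, against -21.33 and -23.98 for TAF-tib48 rep1 and rep2 and 18.55 to 20.9 for TAF-tib6. Per-array values below give it as the last of the 3 TAF-tib48 values. For gene lists described below, counts without it are given for the lists whose counts moved most and for some others. Small moves of the remaining lists are not printed. By the slide numbers in the file headers, TAF-tib48 rep2 and rep3 and the 3 TAF-tib6 arrays formed 1 run of consecutive slides, and TAF-tib48 rep1 stood in another.

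In one limma fit of all 15 arrays, 22.9% of the genes tested passed an adjusted p of 0.05, 10.7% higher and 12.3% lower in TAF-tib48. Among genes with a symbol in the reference table, the shares were 14.3% higher and 13.3% lower. Most differences were small: the median absolute difference was 0.0784, beside a median SD between arrays of 0.0623 in TAF-tib48 and 0.0562 in TAF-tib6. Differences of at least 2-fold were found in 0.737% of the genes, 57 (0.183%) higher and 173 (0.555%) lower. The background correction used here adds an offset of 50 to each signal, which shrinks the fold changes of dim genes. The scanner's own ratios, which lack this offset and also differ in the rest of the processing, put 467 genes past 2-fold. The part of the offset in that number was not tested.

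The largest difference among all genes was that of Mela, which encodes a melanoma antigen of endogenous retroviral origin. Its log2 ratio was 0.79, 0.74 and, in rep3, 1.15 in TAF-tib48, against -4.30, -4.24 and -4.19 in TAF-tib6. The difference was 5.14 (SE 0.08, adjusted p = 7.20e-19), and the spot was saturated on 1 TAF-tib48 array. Melanocyte markers did not move with it: of 9 on the array limma called 0, 1 was past an unadjusted p of 0.05, and none was 2-fold above the reference in either source.

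Next in size came genes of several kinds. Xlr, an X-linked gene first described in lymphocytes, had ratios of 0.02, -0.14 and -0.17 in TAF-tib48, against -2.78, -2.68 and -2.76 in TAF-tib6, a difference of 2.64. Aqp1, a water channel of red cells, kidney and vessel lining, stood at 0.81, 0.74 and 0.45 in TAF-tib48, against -1.96, -1.90 and -2.0 in TAF-tib6 (difference 2.62, SE 0.08, adjusted p = 3.20e-14). Vit, which encodes the matrix protein vitrin, stood at 3.38, 3.45 and 3.34 in TAF-tib48, against 0.73, 0.84 and 0.78 in TAF-tib6 (difference 2.60, SE 0.06, adjusted p = 1.35e-15). These genes were chosen among those whose 3 TAF-tib48 and 3 TAF-tib6 arrays do not overlap. In one direction or the other, 35.6% of all genes tested met that condition.

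The proliferins Prl2c3 and Prl2c5, growth-regulated relatives of prolactin, came next. Prl2c3 read 4.02, 4.21 and 3.40 in TAF-tib48, against 1.37, 1.36 and 1.34 in TAF-tib6 (difference 2.52), and Prl2c5 differed by 2.37. Proliferin genes are near-identical copies, so their probes cannot be told apart with certainty. The other 13 members of the prolactin family tested lay between -0.13 and 0.11 and had no call.

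Among the remaining genes at the top were 2 known from vessel lining, Ptprb and Emcn. Ptprb, a receptor phosphatase of endothelial cells, had ratios of 2.73, 2.82 and 2.69 in TAF-tib48, against 0.76, 0.85 and 0.89 in TAF-tib6 (difference 1.91). Emcn, the sialomucin endomucin, had ratios of 2.10, 2.18 and 1.84 in TAF-tib48, against 0.19, 0.26 and 0.21 in TAF-tib6 (difference 1.82, SE 0.06, adjusted p = 1.11e-13). Arhgdib, a GDP-dissociation inhibitor, differed by 1.97, Ptgs1, the constitutive cyclooxygenase, by 1.83, Galnt18, a glycosyltransferase, by 1.72, and Meox2, a homeobox factor of mesenchyme, by 1.70. Prkg2, a cGMP-dependent kinase, differed by 1.84 on its brightest probe and by 0.09 on the other, so its call rests on 1 probe.

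**Figure D1:**
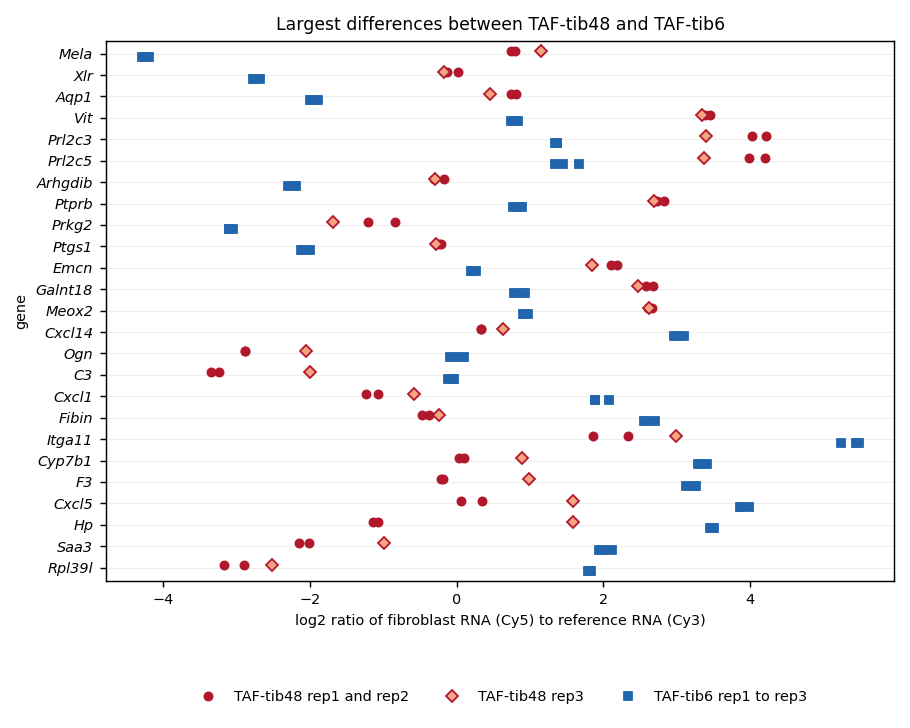
Log2 ratio of fibroblast to reference RNA (x axis) of Mela and of the 12 genes with the largest differences in each direction (y axis), one point per array: circles are TAF-tib48 rep1 and rep2, diamonds TAF-tib48 rep3 and squares the 3 TAF-tib6 arrays. The 12 genes in each direction were chosen among called genes whose groups do not overlap. The diamond of Hp stands at 1.58, far from the circles at -1.14 and -1.08.

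At the other end, the lowest gene was Rpl39l, a tissue-restricted relative of a ribosomal protein gene. Its ratios were -3.18, -2.90 and, in rep3, -2.52 in TAF-tib48, against 1.82, 1.79 and 1.81 in TAF-tib6, a difference of -4.68 (SE 0.10). Its second probe gave -1.43.

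Most of the other lowest genes were inflammatory or matrix genes, and they are described with their groups below. Outside those groups, Cyp7b1, a hydroxylase of oxysterols, had ratios of 0.10, 0.02 and 0.89 in TAF-tib48, against 3.35, 3.41 and 3.29 in TAF-tib6 (difference -3.01, SE 0.14, adjusted p = 1.36e-11). Fibin, a secreted factor named for its role in fish fin buds, had ratios of -0.39, -0.48 and -0.24 in TAF-tib48, against 2.70, 2.60 and 2.55 in TAF-tib6 (difference -2.98).

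Since the series concerns resistance to treatment against VEGF, the ligands and receptors that act on vessels are given first. Of 27 genes of the PDGF, VEGF and angiopoietin families tested, 5 rose and 10 fell, with a median difference of -0.0507, beside -0.0024 over all genes tested. The ligand Angpt2, an antagonist of the receptor Tie2 in many settings, had ratios of 2.37, 2.09 and 3.06 in TAF-tib48, against 1.13, 1.20 and 1.0 in TAF-tib6 (difference 1.39, SE 0.15, adjusted p = 7.76e-07). It was highest in rep3, so here rep3 lay farther from TAF-tib6 than the other TAF-tib48 arrays.

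Pdgfc, a ligand of the alpha PDGF receptor, had ratios of -0.10, -0.11 and -0.38 in TAF-tib48, against -0.81, -0.75 and -0.74 in TAF-tib6 (difference 0.57, SE 0.06, adjusted p = 1.61e-06), and its second probe differed by 0.59. Pdgfa, another ligand of that receptor, had 0.64, 0.69 and 0.47 in TAF-tib48, against 0.56, 0.49 and 0.54 in TAF-tib6, with no call (difference 0.07, adjusted p = 0.356). Without rep3 Pdgfa passed the threshold at a difference of 0.14 (adjusted p = 0.0426), and its second probe differed by -0.17 with no call. The receptor gene Pdgfra fell by 1.08 on its brightest probe, whereas a second probe differed by -0.01, and Pdgfrb rose by 0.26.

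Vegfa itself was lower in TAF-tib48. Its ratios were 0.05, -0.07 and 0.10 in TAF-tib48, against 0.42, 0.43 and 0.47 in TAF-tib6 (difference -0.42, SE 0.05, adjusted p = 3.72e-06), and its other probes differed by -0.31 and -0.63. Vegfd and Vegfc, growth factors of lymphatic vessels, differed by -1.34 and -0.49, both called. Angptl4, an inhibitor of lipoprotein lipase, fell by 1.26 and Adm, the vasodilator adrenomedullin, fell by 1.21. Flt1, a VEGF receptor that often acts as a decoy, had -0.26, -0.39 and -0.14 in TAF-tib48, against 0.55, 0.60 and 0.65 in TAF-tib6 (difference -0.86). Kdr, the main signalling receptor of VEGF-A, did not pass (difference 0.01, adjusted p = 0.947).

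**Figure D2:**
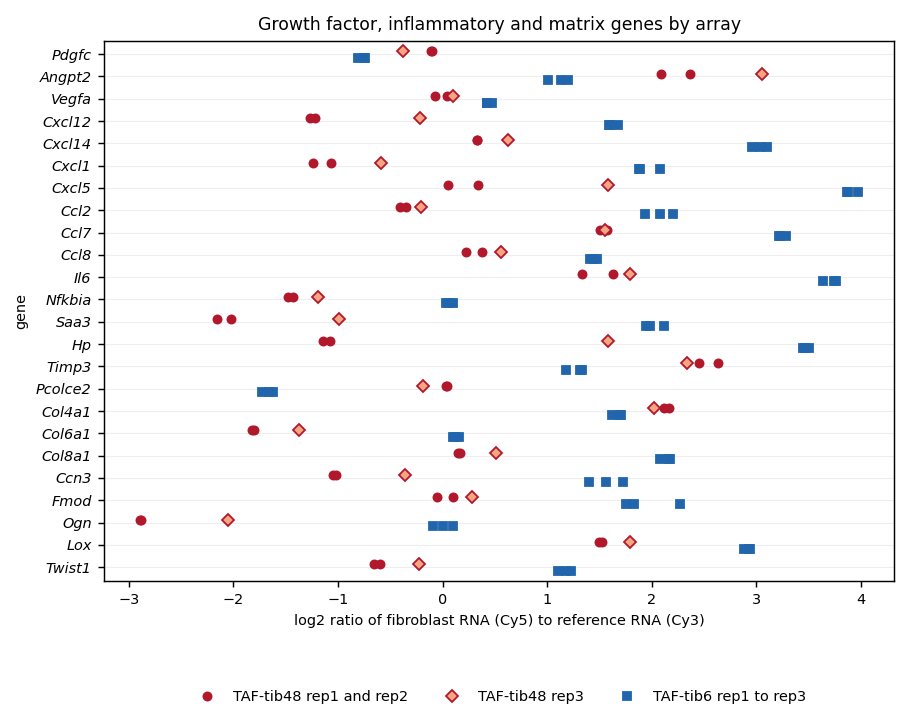
Log2 ratio of fibroblast to reference RNA (x axis) of vessel-acting ligands, inflammatory genes and matrix genes (y axis), one point per array, with symbols for TAF-tib48 rep1 and rep2, TAF-tib48 rep3 and TAF-tib6. TAF-tib48 lies above TAF-tib6 for Pdgfc, Angpt2, Timp3, Pcolce2 and Col4a1 and below it for the other genes drawn.

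Chemokines that draw in neutrophils and monocytes were among the genes with the largest deficits in TAF-tib48. Of 13 CXC chemokines tested, 6 fell and none rose by limma (1 was higher at an unadjusted p of 0.05), with a median of -0.178. Without rep3, 7 fell, with a median of -0.277. Cxcl5, a ligand of the neutrophil receptor CXCR2, had ratios of 0.34, 0.05 and 1.58 in TAF-tib48, against 3.87, 3.88 and 3.98 in TAF-tib6 (difference -3.25, SE 0.23, adjusted p = 4.65e-09). Cxcl1, a ligand of the same receptor, had -1.24, -1.07 and -0.59 in TAF-tib48, against 1.88, 1.89 and 2.08 in TAF-tib6 (difference -2.92, SE 0.12, adjusted p = 1.28e-12). Groups that do not overlap were a condition for naming these genes among the lowest, and rep3 was the highest TAF-tib48 array for each.

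Cxcl14 and Cxcl12, ligands of other receptors, fell as well. Cxcl14 had 0.33, 0.33 and 0.63 in TAF-tib48, against 3.03, 3.10 and 2.96 in TAF-tib6 (difference -2.60). Cxcl12, the ligand of CXCR4 that retains progenitor cells in marrow, had -1.22, -1.26 and -0.21 in TAF-tib48, against 1.68, 1.59 and 1.60 in TAF-tib6 (difference -2.52), and its second probe gave -3.26.

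Among 18 CC and CX3C chemokines tested, 5 fell and 3 rose, with a median of -0.00455. Without rep3, 5 fell and 1 rose, with a median of 0.00931. The monocyte attractant Ccl2 had -0.40, -0.35 and -0.20 in TAF-tib48, against 2.08, 2.20 and 1.93 in TAF-tib6 (difference -2.39, SE 0.09, adjusted p = 1.02e-12). Ccl7, another monocyte attractant, fell by 1.70, Ccl8 fell by 1.06 and the eosinophil attractant Ccl11 by 0.87. Ccl9 went the other way, with 0.33, 0.27 and 0.42 in TAF-tib48, against -0.38, -0.33 and -0.33 in TAF-tib6 (difference 0.69). Of 19 cytokines and colony-stimulating factors tested, 7 fell and 1 rose, with a median of -0.0854. Il6, a driver of the acute phase response, had 1.63, 1.33 and 1.79 in TAF-tib48, against 3.63, 3.75 and 3.76 in TAF-tib6 (difference -2.13, SE 0.09, adjusted p = 5.24e-12). Il1rn, the receptor antagonist of interleukin 1, fell by 1.43 on one probe and differed by -0.13 on another.

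Regulators and targets of the transcription factor NF-kappaB were mostly lower: of 22 tested, 16 fell and 2 rose, a share called of 81.8%, with a median of -0.267. Nfkbia, the inhibitor that NF-kappaB induces to end its own activity, had -1.48, -1.43 and -1.19 in TAF-tib48, against 0.03, 0.10 and 0.06 in TAF-tib6 (difference -1.43, SE 0.09, adjusted p = 3.42e-10). Nfkbiz, a nuclear co-regulator, fell by 0.96, Sod2, the mitochondrial superoxide dismutase, by 0.94 and Ptgs2, the inducible cyclooxygenase, by 0.85. The subunit genes themselves went in both directions: Rela rose by 0.18 and Nfkb2 by 0.36, while Nfkb1 and Relb fell by 0.26 and 0.24.

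Acute phase genes, which liver and stroma express in inflammation, showed the same direction. Of 17 tested, 10 fell and none rose by limma (0 were higher at an unadjusted p of 0.05), with a median of -0.273. Saa3, a serum amyloid of macrophages and stroma, had -2.16, -2.02 and -0.99 in TAF-tib48, against 1.99, 1.94 and 2.12 in TAF-tib6 (difference -3.74, SE 0.25, adjusted p = 1.73e-09). Hp, the haemoglobin binder haptoglobin, had -1.14, -1.08 and 1.58 in TAF-tib48, against 3.45, 3.51 and 3.47 in TAF-tib6 (difference -3.69, SE 0.43, adjusted p = 3.03e-06). Hp in rep3 thus lay well above the other TAF-tib48 arrays and still below TAF-tib6. Il1r1, the signalling receptor of interleukin 1, fell by 1.27 and Ptx3, a long pentraxin, fell by 1.22. Saa1 fell by 2.59 on its brightest probe, while another probe differed by -0.03.

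The promoters of the inflammatory genes that were at least 2-fold lower are shown where they hold a kappaB motif, the sequence that NF-kappaB binds. The 15 such genes come from the chemokine, cytokine, NF-kappaB and acute phase lists, and 11 had a promoter in the RefSeq table of build GRCm38.p6. The kappaB consensus was searched on both strands in the 250 bases before each start. Of the 11 genes, 4 held it in at least 1 promoter: Cxcl1, Il6, Nfkbia and, in 1 of its 2 promoters, Il1r1. Of all 32851 promoters in the table, 3.9% held it over the same length, and of all 27025 genes, 4.46% held it in at least 1 promoter. Among all genes at least 2-fold lower the share was 9 of 89, and among those at least 2-fold higher 2 of 31. The 11 genes come from lists that include known NF-kappaB targets and were written with earlier results of these data known. Their share therefore cannot be read as an excess over that of all genes. Matches are letters in a window and show no binding. The 3 promoters with a match close to the start follow, each read 5′ to 3′ on the strand of its gene with the match in capitals. Cxcl1 lies at chr5:90890995-90891244 on the plus strand and holds a match on each strand, overlapping, that begin at positions -71 and -70 from the start. Il6 lies at chr5:30012864-30013113 on the plus strand with a match from -44, and Nfkbia at chr12:55492648-55492897 on the minus strand with a match from -29.
Cxcl1: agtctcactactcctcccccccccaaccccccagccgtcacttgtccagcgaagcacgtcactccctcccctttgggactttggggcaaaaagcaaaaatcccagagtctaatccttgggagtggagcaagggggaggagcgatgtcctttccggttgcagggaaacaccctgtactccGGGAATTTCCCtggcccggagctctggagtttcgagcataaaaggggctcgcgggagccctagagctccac
Il6: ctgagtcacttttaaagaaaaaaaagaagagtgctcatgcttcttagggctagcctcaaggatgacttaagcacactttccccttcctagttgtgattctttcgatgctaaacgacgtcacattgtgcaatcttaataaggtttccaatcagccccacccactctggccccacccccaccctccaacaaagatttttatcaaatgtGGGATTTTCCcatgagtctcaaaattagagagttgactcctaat
Nfkbia: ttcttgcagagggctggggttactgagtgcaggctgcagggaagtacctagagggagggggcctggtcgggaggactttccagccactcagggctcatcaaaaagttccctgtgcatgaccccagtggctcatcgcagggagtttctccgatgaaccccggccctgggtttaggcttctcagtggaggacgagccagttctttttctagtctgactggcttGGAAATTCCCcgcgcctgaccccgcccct

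The complement system gave fewer calls. Of 21 components and inhibitors tested, 6 fell and 2 rose, with a median of -0.0094. C1ra, a protease of the classical pathway, had -1.19, -1.60 and -0.65 in TAF-tib48, against 0.64, 0.88 and 0.53 in TAF-tib6 (difference -1.83). C3, the central component, had -3.35, -3.25 and -2.0 in TAF-tib48, against -0.07, -0.13 and -0.04 in TAF-tib6 (difference -2.79), but its second probe differed by -0.11. Cd55, an inhibitor that sits in the cell membrane, rose by 0.65. Serping1, the inhibitor of C1, fell by 0.47, with overlapping groups.

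Interferon-stimulated genes, which mark a response to interferons, showed little difference. Of 40 tested, 6 rose and 1 fell, a share of 17.5% that is below the 22.9% of all genes, and none reached 2-fold. Usp18, a brake on interferon signalling, rose by 0.54 and the antiviral synthetase Oas1a by 0.50. These counts rested on rep3: without it 5 rose and 6 fell. Of 17 genes of MHC class I presentation, 5 fell and 1 rose, and without rep3 9 fell and 1 rose. Psmb8, a subunit of the immunoproteasome, had -1.21, -1.20 and -0.62 in TAF-tib48, against 0.03, -0.06 and -0.04 in TAF-tib6 (difference -0.99), and B2m, the light chain of class I molecules, fell by 0.49.

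Genes of the extracellular matrix were the other large group that was lower in TAF-tib48. Of 13 fibrillar and associated collagens tested, 8 fell and 1 rose, and the median was -0.478. Without rep3, 10 fell and 3 had no call. These counts and the median rest on the brightest probe of each gene, and second probes of several members differed less. Col2a1 differed by -0.77 and, on a second probe, by -0.29. Col14a1, Col16a1 and Col11a1, all called, differed by -0.53, -0.51 and -0.45. Their second probes differed by -0.04, -0.07 and -0.15 with no call. Col5a3, called higher, differed by 0.15 and by -0.01 on a second probe. Col12a1, which decorates collagen fibrils, had 0.58, 0.63 and 0.72 in TAF-tib48, against 1.67, 1.80 and 1.62 in TAF-tib6 (difference -1.06, SE 0.07, adjusted p = 3.23e-09). Col5a2, of the fibril-initiating collagen, fell by 0.48. Col5a1, its partner chain, fell by 0.61, with -0.28 on another probe. The brightest probes of the main collagen genes Col1a1 and Col1a2 were saturated on all 6 arrays and give no comparison. Of Col1a1, 2 dimmer probes differed by -0.36 (adjusted p = 0.00015) and -0.26 (adjusted p = 0.0194). Col3a1 was saturated on the TAF-tib6 arrays only and was called lower, but its second probe differed by -0.12.

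Other collagens split by kind. Of 18 tested, 7 fell and 3 rose. Col8a1, a short-chain collagen of vessels and skin, had 0.15, 0.17 and 0.51 in TAF-tib48, against 2.17, 2.17 and 2.08 in TAF-tib6 (difference -1.86, SE 0.07, adjusted p = 8.89e-13), and Col8a2 fell by 1.25. Col6a1, of the beaded-filament collagen, had -1.82, -1.81 and -1.37 in TAF-tib48, against 0.12, 0.16 and 0.10 in TAF-tib6 (difference -1.79), and Col6a2 fell by 0.97. The 3 that rose are collagens of basement membranes: Col4a1 by 0.43, Col4a2 by 0.29, and Col15a1 by 0.95 on its brightest probe and by 0.12 on another. Other chains of the same collagen type, Col4a5 and Col4a6, fell by 0.67 and 0.17. Of 16 further basement membrane genes tested, 3 rose and 3 fell. Lamb1, a laminin chain, fell by 1.04, and Nid1, a linker of laminin and collagen, rose by 0.25.

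Enzymes that mature and cross-link collagen fell more often than they rose, 9 against 3 of 18 tested, with a median of -0.15. Without rep3, 10 fell and 2 rose, with a median of -0.23. Lox, which oxidises lysines so that collagen and elastin cross-link, had 1.53, 1.50 and 1.79 in TAF-tib48, against 2.94, 2.93 and 2.89 in TAF-tib6 (difference -1.31, SE 0.08, adjusted p = 2.0e-10). P4ha2, a prolyl hydroxylase, fell by 0.98. Pcolce2, an enhancer of procollagen processing, was the exception in size, with 0.04, 0.04 and -0.19 in TAF-tib48, against -1.73, -1.66 and -1.62 in TAF-tib6 (difference 1.63, SE 0.06, adjusted p = 5.05e-13).

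Small leucine-rich proteoglycans coat collagen fibrils and bind growth factors. Of 15 tested, 9 fell and 1 rose, with a median of -0.274, and 5 fell at least 2-fold. Ogn, osteoglycin, had -2.89, -2.89 and -2.05 in TAF-tib48, against -0.09, 0.00 and 0.10 in TAF-tib6 (difference -2.61, SE 0.14, adjusted p = 8.83e-11). Fmod, fibromodulin, had 0.10, -0.05 and 0.28 in TAF-tib48, against 1.83, 2.27 and 1.75 in TAF-tib6 (difference -1.84). Aspn, asporin, fell by 1.72 and Dcn, decorin, fell by 1.45, whereas Lum, lumican, differed by -0.02 and had no call. Prelp fell by 1.30 on one probe and differed by -0.07 on another.

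Of 42 elastic fibre and matricellular genes tested, 24 fell and 5 rose, with a median of -0.323. Ccn3, an adhesive regulator of growth, had -1.02, -1.05 and -0.36 in TAF-tib48, against 1.56, 1.73 and 1.40 in TAF-tib6 (difference -2.37). Thbs1, an inhibitor of vessel growth and activator of TGF-beta, fell by 1.68, Has2, a hyaluronan synthase, by 1.56, Mgp, an inhibitor of calcification, fell by 1.44, Ccn2, a connective tissue growth factor, fell by 1.27 and Postn, periostin, fell by 1.17. Tnc, tenascin C, fell by 1.75, with -0.52 on a second probe. Vit, described above, and Efemp1, a fibulin (difference 1.16), were the members that rose at least 2-fold.

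Proteases of the matrix and their inhibitors moved in both directions, with 8 lower and 3 higher of 28 tested. Timp3, a matrix-bound inhibitor of metalloproteinases that also blocks VEGF from its receptor, had 2.63, 2.46 and 2.33 in TAF-tib48, against 1.18, 1.34 and 1.31 in TAF-tib6 (difference 1.20, SE 0.08, adjusted p = 9.60e-10). Mmp2, a gelatinase, fell by 1.32, and Mmp11, stromelysin of tumour stroma, rose by 0.72. Of 23 genes of coagulation and plasminogen activation, 8 fell and 7 rose. F3, tissue factor, the starter of clotting, had -0.19, -0.22 and 0.99 in TAF-tib48, against 3.24, 3.26 and 3.12 in TAF-tib6 (difference -3.02, SE 0.20, adjusted p = 1.03e-09), and its second probe gave -2.91. Gas6, the ligand of the receptor Axl, had 1.0, 0.71 and 1.99 in TAF-tib48, against 3.85, 3.69 and 3.57 in TAF-tib6 (difference -2.47). Anxa2, a cell-surface receptor of plasminogen, rose by 1.0 and Procr, the protein C receptor, by 0.59.

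One integrin stood apart from the rest of its family. Itga11, the collagen receptor subunit of fibroblasts, had 2.33, 1.86 and 2.99 in TAF-tib48, against 5.48, 5.44 and 5.24 in TAF-tib6 (difference -2.99, SE 0.17, adjusted p = 2.30e-10). Of 17 integrins tested, 4 rose and 2 fell, and Itga6, a laminin receptor subunit, rose by 0.69. Of 25 contractile genes, which mark myofibroblasts, 8 rose and 3 fell, none by 2-fold. The probes of Acta2, smooth muscle actin, disagreed. The brightest, saturated on 2 TAF-tib48 arrays, differed by -0.20 with no call, and 2 others differed by 0.41 and -0.47, each past the threshold, so no direction is given.

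**Figure D3:**
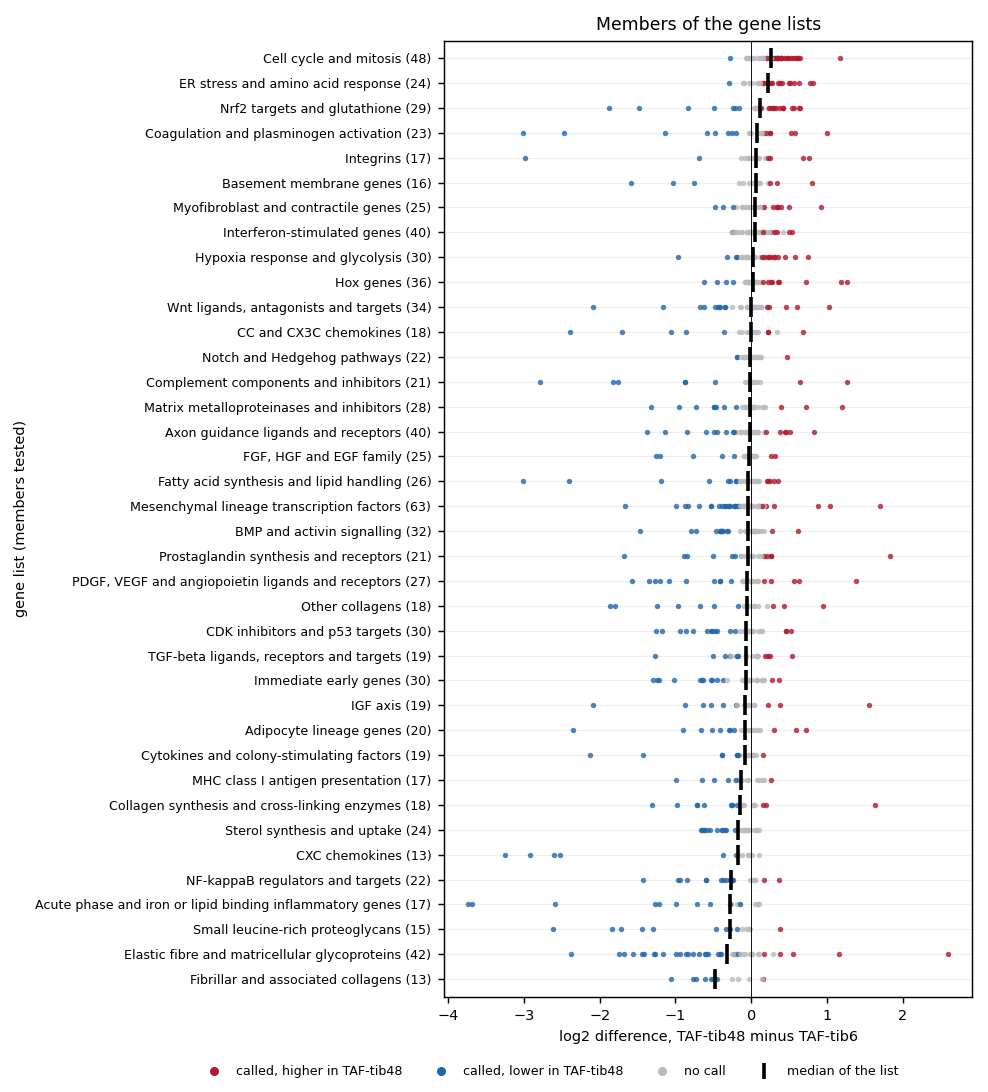
Log2 difference, TAF-tib48 minus TAF-tib6 (x axis), of each tested member of 38 gene lists (y axis, number tested in brackets), with red points called higher, blue points called lower, grey points without a call and a black bar at the list median. Medians run from 0.268 for the cell cycle to -0.478 for fibrillar collagens, and single members such as Vit and Pcolce2 lie opposite to most of their list.

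In the BMP, TGF-beta, Wnt, FGF and IGF groups, more of the called genes fell than rose, but the list medians were small. They ran from -0.0011 for Wnt to -0.0777 for the IGF axis, beside -0.0024 over all genes tested. The shares called ran from 28% for the FGF, HGF and EGF families to 52.6% for TGF-beta, beside 22.9% of all genes. Among genes with a symbol, 14.3% were called higher and 13.3% lower, so the 28% lies near the share of such genes. Of 32 genes of BMP and activin signalling tested, 12 fell and 2 rose. The Id genes, direct targets of BMP signalling, were among those that fell: Id4 had 2.13, 1.89 and 2.39 in TAF-tib48, against 3.64, 3.59 and 3.59 in TAF-tib6 (difference -1.47), Id1 fell by 0.80 and Id3 by 0.73. Grem1, a secreted BMP antagonist, rose by 0.61 (SE 0.05, adjusted p = 2.31e-08). Of 19 TGF-beta ligands, receptors and targets, 6 fell and 4 rose, and without rep3 8 fell and 3 rose. Tgfb2 fell by 0.50 and Eng, an accessory receptor, rose by 0.54. Tgfbr2 fell by 1.27 on its brightest probe and differed by -0.18 on another.

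In the Wnt group, 10 fell and 5 rose of 34 tested, and without rep3 12 fell and 5 rose. The secreted antagonist Dkk2 had 1.28, 1.16 and 1.18 in TAF-tib48, against 3.13, 3.37 and 3.38 in TAF-tib6 (difference -2.09, SE 0.08, adjusted p = 3.76e-13), and Rspo2, which amplifies Wnt signals, fell by 1.16. The ligand Wnt4 had 0.51, 0.25 and 0.67 in TAF-tib48, against -0.49, -0.57 and -0.57 in TAF-tib6 (difference 1.02). Of 25 genes of the FGF, HGF and EGF families, 5 fell and 2 rose, and Hgf, a fibroblast factor for epithelium, fell by 1.20. Of 19 genes of the IGF axis, 6 fell and 3 rose. Pappa, the protease that frees IGF from its binding proteins, fell by 2.09, and its substrate Igfbp4 rose by 1.56, with 0.70 on a second probe.

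Lipid genes included several large decreases. Of 24 genes of sterol synthesis and uptake, 12 fell and none rose by limma (0 were higher at an unadjusted p of 0.05), with a median of -0.172 and none at 2-fold. Sqle, the squalene oxygenase, fell by 0.64, and Hmgcs1 by 0.66 on its brightest probe and -0.10 on another. Of 26 genes of fatty acids and lipid handling, 8 fell and 5 rose. Lpl, lipoprotein lipase, had 0.90, 0.78 and 1.58 in TAF-tib48, against 3.54, 3.41 and 3.54 in TAF-tib6 (difference -2.41), and Abca1, the cholesterol exporter, fell by 1.18. Of 20 adipocyte lineage genes, 8 fell and 3 rose. Fabp4, a fatty acid carrier, had 0.42, 0.40 and 0.55 in TAF-tib48, against 2.89, 2.81 and 2.71 in TAF-tib6 (difference -2.35), with -2.97 and -0.61 on its other probes.

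Prostaglandin synthesis showed opposite changes of the 2 cyclooxygenases. Ptgs1 had -0.22, -0.24 and -0.28 in TAF-tib48, against -2.0, -2.12 and -2.13 in TAF-tib6 (difference 1.83, SE 0.05, adjusted p = 1.88e-14). Ptgs2 had 0.16, 0.00 and -0.24 in TAF-tib48, against 0.73, 0.87 and 0.87 in TAF-tib6 (difference -0.85, SE 0.08, adjusted p = 1.60e-07). Downstream, Ptgis, the prostacyclin synthase, fell by 1.68 and Ptges, an inducible prostaglandin E synthase, by 0.89. In all, 6 of 21 genes of the group fell and 5 rose.

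Genes of cell division were higher in TAF-tib48, and by how much depended on rep3. Of 48 tested, 26 rose and 1, Ccnd2, fell, with a median of 0.268. Without rep3, 37 rose and 1 fell, with a median of 0.408, and within the run of slides that holds both sources 13 rose and 1 fell. These counts rest on the brightest probe of each gene. Cdk1, Top2a and Cenpe, all called, differed by 0.53, 0.60 and 0.34, and by 0.07, 0.10 and 0.16 on second probes with no call. Second probes of Cdca3, Cdca8 and Mcm3 differed by 0.33, 0.33 and 0.22, each past the threshold. Ccnd1, the cyclin that links growth signals to the cell cycle, had 0.33, 0.53 and 0.02 in TAF-tib48, against -0.92, -0.87 and -0.87 in TAF-tib6 (difference 1.18, SE 0.09, adjusted p = 4.52e-09). Cdc20, an activator of anaphase, had -0.23, -0.11 and -0.87 in TAF-tib48, against -0.98, -1.09 and -1.07 in TAF-tib6 (difference 0.64, SE 0.12, adjusted p = 0.000482). Ccnb2, a mitotic cyclin, rose by 0.62 and lay at -0.89 in rep3, against -0.38 and -0.35 in the other TAF-tib48 arrays.

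Inhibitors of the cell cycle and p53 targets went mostly the other way, with 12 lower and 3 higher of 30 tested. Cdkn2a, which encodes p16 and p19Arf, had -0.54, -0.30 and 0.03 in TAF-tib48, against 1.1, 0.93 and 0.93 in TAF-tib6 (difference -1.26, SE 0.12, adjusted p = 1.30e-07). Gadd45g, a stress-induced growth brake, fell by 1.18, Cdkn1c by 0.94 and Cdkn1a, the main p53-induced inhibitor, by 0.59. Immediate early genes, which serum and stress induce within minutes, counted 11 lower and 2 higher of 30, and 12 lower and 4 higher without rep3. Dusp6, a phosphatase that ERK signalling induces, fell by 1.30, Nr4a1 fell by 1.25, Fos fell by 1.22 and Ier3 fell by 1.02.

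Metabolic and stress genes changed less in size. Of 24 genes of ER stress and the amino acid response, 14 rose and 1 fell, with a median of 0.228 and none at 2-fold. The members that rose most make amino acids: Phgdh, the entry enzyme of serine synthesis, by 0.81, Cth, a cystathionine lyase, by 0.78 and Asns, asparagine synthetase, by 0.63, while Hspa5, the main chaperone of the ER, differed by 0.01. Of 29 Nrf2 targets and glutathione genes, 13 rose and 7 fell. Mgst1, a microsomal glutathione transferase, had -0.93, -1.04 and -0.50 in TAF-tib48, against 1.05, 1.06 and 1.06 in TAF-tib6 (difference -1.88), and Gpx3, the secreted glutathione peroxidase, fell by 1.47. Nqo1, a classical Nrf2 target, rose by 0.54. Of 30 genes of hypoxia and glycolysis, 11 rose and 4 fell. Hif1a, the oxygen-regulated factor itself, fell by 0.96, and Eno3, an enolase of muscle, rose by 0.75. Without rep3, 9 of these genes rose and 6 fell, with a median of -0.019, beside 0.0296 with it.

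Patterning genes differed in a few members. Of 36 Hox genes, whose expression keeps the body position of a fibroblast, 9 rose and 4 fell. The 3 that rose most lie in 1 cluster: Hoxa11 had -0.08, 0.02 and -0.11 in TAF-tib48, against -1.39, -1.26 and -1.33 in TAF-tib6 (difference 1.27), Hoxa7 rose by 1.19 and Hoxa10 by 0.73. Hoxa3, Hoxa4 and Hoxa13 of the same cluster had no call (differences 0.04, -0.02 and -0.008). The lowest difference of a Hox gene was -0.62. Of 63 mesenchymal transcription factors, 21 fell and 6 rose. Meox2 had 2.61, 2.67 and 2.63 in TAF-tib48, against 0.91, 0.97 and 0.92 in TAF-tib6 (difference 1.70, SE 0.09, adjusted p = 4.61e-11), and Foxf2 rose by 1.04. Twist1, a repressor active in early mesenchyme, had -0.66, -0.59 and -0.23 in TAF-tib48, against 1.23, 1.19 and 1.1 in TAF-tib6 (difference -1.67, SE 0.08, adjusted p = 1.57e-11). Prrx2 fell by 0.99, Foxc1 by 0.88 and Snai1 by 0.84. Of 40 axon guidance genes, 9 fell and 6 rose, with Sema3c at -1.38 and Plxna2 at 0.83, and without rep3 11 fell and 6 rose. Epha4, Efna5 and Efnb2 differed by -1.13, -0.85 and -0.59 on their brightest probes and by -0.39, -0.03 and -0.06 on second probes. Sema6d differed by 0.51, with 0.01 on a second probe. Sema3f differed by -0.34 and Slit2 by 0.46, with -0.38 and 0.54 on second probes. In the Notch and Hedgehog pathways 2 fell and 1, the receptor gene Notch3, rose (difference 0.47) of 22 tested, and without rep3 1 fell and 1 rose.

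Of 14 imprinted growth genes 6 fell and 2 rose, or 6 and 1 without rep3, with Dlk1, an inhibitor of adipocyte formation, lower by 0.81. Of 25 aquaporins and carriers of lactate and ions 4 rose and 3 fell, a share called of 28%. That is near the share among genes with a symbol, of which 14.3% were higher and 13.3% lower. Besides Aqp1, Slc16a11, of the monocarboxylate transporter family, rose by 1.56, and the other 8 aquaporins tested differed by -0.05 to 0.13 with no call.

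The label of both sources as fibroblasts was checked against markers. Of 20 fibroblast identity genes, 8 were at least 2-fold above the reference in TAF-tib48 and 8 in TAF-tib6, and the median ratio to the reference was 0.588 in TAF-tib48 and 0.621 in TAF-tib6. On its brightest probe Thy1, a surface marker of fibroblasts, stood at 2.31, 2.31 and 2.39 in TAF-tib48, against 2.39, 2.39 and 2.33 in TAF-tib6, and a second probe differed by -0.38 (adjusted p = 0.0022). Between the sources 8 of these genes fell and 3 rose, with a median of -0.13, and without rep3 11 fell and 3 rose, with a median of -0.215. Of 18 macrophage markers, none was 2-fold above the reference in either source and 6 were 2-fold below it in each, and between the sources 2 rose and 1 fell. Of 24 lymphocyte markers limma called 1, Cd7 (difference 0.17). That call was lost under 9 of 19 alternatives, among them without rep3 (0.12, adjusted p = 0.139), and without rep3 1 of the list rose and 2 fell. Of 18 epithelial markers 4 rose and 1 fell, with Krt19, a keratin of simple epithelium, at 0.57. Their share called, 27.8%, is near that among genes with a symbol (14.3% higher and 13.3% lower). Some of these calls varied by probe or processing. Sfn differed by 0.31 on its brightest probe and by 0.01 and 0.03 on others. Krt8 differed by 0.14, with -0.20 on a second probe, and Krt18 by 0.0086 after scaling between arrays. Trp63 differed by -0.69, with 0.11 on a second probe not well above background. Of 13 nerve and Schwann cell markers 2 rose, S100b by 0.75 and Tubb3 by 0.32, and of 13 skeletal muscle markers 1 rose and 1 fell, neither of them called without rep3.

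Endothelial markers differed more. Of 20 tested, 9 rose and 1, Flt1, fell, with a median of 0.146, and without rep3 7 rose and 2 fell. Emcn rose by 1.82, Egfl7 by 0.58, Eng by 0.54 and, on its brightest probe, Cdh5 by 0.74, with 0.28 on another. Erg, a factor of endothelial cells, rose by 0.61 on one probe and differed by -0.01 on another. Other defining markers had no call: Pecam1 had -0.12, -0.07 and 0.04 in TAF-tib48, against -0.12, -0.20 and 0.04 in TAF-tib6 (difference 0.05, adjusted p = 0.729), and Kdr and Vwf each differed by 0.01. The summed Cy5 signal of the list lay between 5748 and 5895 in TAF-tib48 and between 4999 and 5055 in TAF-tib6. Of 11 markers of pericytes and smooth muscle, 5 rose and 1 fell. Cspg4, the NG2 proteoglycan, rose by 0.58, and Mcam by 1.01, with 0.34 on a second probe. Their summed signal ran from 42790 to 54860 in TAF-tib48 and from 47040 to 50640 in TAF-tib6. The part of other cell types in the results was not tested, and in bulk RNA fewer cells of a type and less RNA per cell cannot be told apart.

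TAF-tib48 rep3 departed by at least 1 on the log2 scale from the mean of rep1 and rep2 in 15 genes whose values in those 2 arrays were within 0.5, 14 of them above. Each of the other 14 arrays of the series departed from the others of its source in 0 to 2 genes. Hp departed most, by 2.69. Next came Cpxm1, of the carboxypeptidase family, at 1.39 in rep3, against -0.04 and -0.15 in rep1 and rep2 and 2.47 to 2.67 in TAF-tib6. Dio3, which inactivates thyroid hormone, stood at 2.71 in rep3, against 1.42 and 1.06 in rep1 and rep2 and 4.20 to 4.33 in TAF-tib6. Cxcl5, C3, F3, Gas6, Emb, Syt13 and Saa3 followed, with departures of 1.38, 1.30, 1.19, 1.13, 1.13, 1.1 and 1.09, and Emb and Syt13 each have another probe that differs.

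The departure of rep3 pointed towards TAF-tib6 for most of the genes with large differences. Among 208 genes at least 2-fold lower in rep1 and rep2 alone, rep3 lay on the TAF-tib6 side of their mean in 197, by a median of 21.5% of the distance. Among 58 genes at least 2-fold higher, it did so in 42, by a median of 7.13%. With rep1 or rep2 as the array left out, the medians were -7.68% and -11.7% for lower genes and -3.23% and -0.294% for higher genes. In 180 of the 208 genes rep3 also lay outside the range of rep1 and rep2.

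For other genes rep3 lay outside both groups. Of 38 interferon-stimulated genes with all 6 values, rep3 was the highest of the 6 arrays in 23, and of 17 genes of MHC class I presentation in 8, whereas over all genes it was the highest in 4581 of 30975. Ifit1, an interferon-induced RNA binder, had 1.0 in rep3, against 0.46 and 0.35 in rep1 and rep2 and 0.20 to 0.36 in TAF-tib6. Cell cycle genes were lower in rep3 than in rep1 and rep2 in 44 of 48, with a median departure of -0.419. In 20 of the 48 it lay between the other TAF-tib48 arrays and TAF-tib6, and in 12 it was the lowest of the 6. The replication histone gene H2ac13 had -1.58 in rep3, against -0.86 and -0.57 in rep1 and rep2 and -1.17 to -1.06 in TAF-tib6. Cks1b, a cofactor of cell cycle kinases, had -1.23 in rep3, against -0.41 and -0.56 in rep1 and rep2 and -0.68 to -0.57 in TAF-tib6. These are values of 1 array, and whether it differs in culture or handling was not tested.

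**Figure D4:**
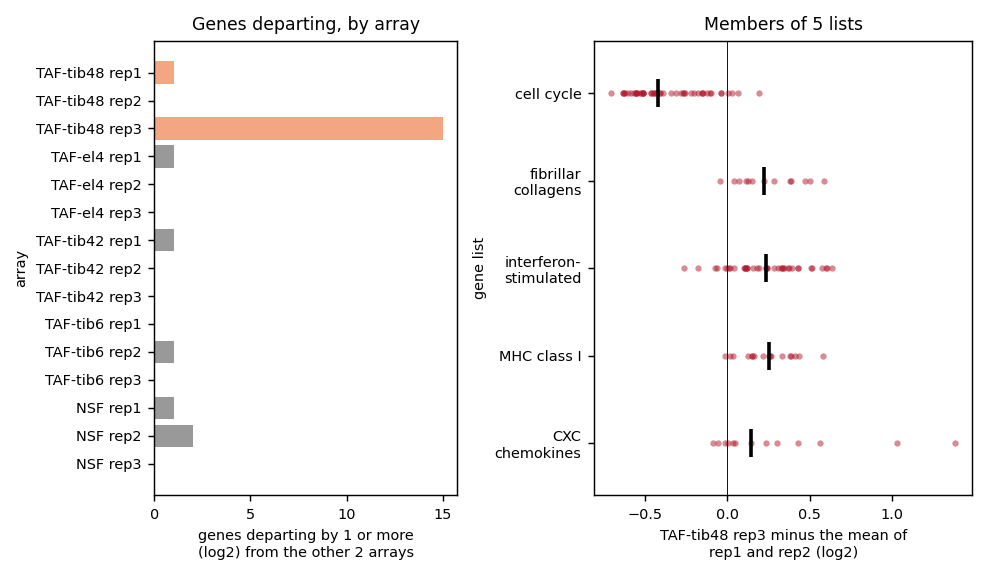
Left, number of genes (x axis) in which each of the 15 arrays (y axis) departs by at least 1 on the log2 scale from the mean of the other 2 arrays of its source, where those 2 are within 0.5. Right, TAF-tib48 rep3 minus the mean of rep1 and rep2 (log2, x axis) for the tested members of 5 gene lists (y axis), with a bar at each median: TAF-tib48 rep3 has 15 such genes, and the medians are -0.419 for the cell cycle and 0.251 for MHC class I.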

How the data were processed

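RNA of 5 mouse fibroblast sources was hybridised to 15 Agilent 2-colour arrays, 3 per source, and 6 arrays enter the comparison. The deposited scanner files hold the spot intensity and local background of each dye and a log10 ratio, per the file headers. The authors' deposited value table holds log2 ratios that match the scanner's. Agilent Feature Extraction 8.5.1.1 is named in the headers and the submitters' processing notes, and version 9.5 in a protocol label.

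With limma 3.58.1 in R 4.3.3, intensities were background-corrected (normexp, offset 50) and loess-normalised within arrays, leaving out flagged spots. A gene was represented by its brightest probe and tested if Cy5 was well above background on all 3 arrays of a source. One fit of 15 arrays gave two-sided p-values, adjusted by Benjamini-Hochberg, and was tested on simulated data. The number of arrays limits the precision.

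Genes were named by rule: the 12 highest and 12 lowest non-overlapping called genes with a symbol, up to 5 called members per list besides others given with values, fixed names and the 10 genes with the largest rep3 departure each way. The members, lists and rules were chosen with earlier results of these data known. Symbols came from the files or, through accessions for 22214 of 41174 probes, from RefSeq. There were 19 alternatives. No pairing of the samples by replicate number was seen. Some genes that the rule names are not reported here.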

Additional observations from a re-analysis of the deposited data

How the results depend on the processing

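The 230 genes called at least 2-fold apart were all still called under each of 17 alternatives. Of them, 229 were called within the run of slides that holds both sources, and 228 were tested, and called, where Cy5 had to be well above background on all 6 arrays. The number past 2-fold was 467 with the scanner's ratios and 466 with the authors' deposited value table. Neither has the offset of 50, and both also differ in the rest of the processing. The number called ranged from 4860, within that run, to 7265, without background subtraction, and leaving out 1 array at a time gave 5428 to 7156 calls and 220 to 268 genes past 2-fold. Genes in which TAF-tib48 rep3 departed numbered 62 with the scanner's ratios, 62 with the authors' table and 71 with the Cy5 channel alone. With Cy5 alone, Ihh differed by 0.0516 and Mylpf by -0.077, and Krt8 differed by -0.0906 after scaling between arrays and by -0.0286 as a mean of probes, each opposite in sign to the reported fit. With the replicate number as a block, 6947 genes were called and 230 were past 2-fold. Same-numbered arrays did not deviate together (r = -0.04, 0.02 and 0.03), and arrays with different numbers gave r from -0.097 to 0.097. No pairing by number was seen, but so noisy a measure cannot exclude one. Saturation limits the brightest genes, among them the brightest probes of the main collagens, and the offset limits the fold changes of dim ones.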
